A study of Mus musculus with 24 samples.

Results

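The calcineurin and NFAT genes are 10 genes of the pathway that cyclosporin A (CsA) classically blocks. They were chosen by their symbols and by no cutoff on measured values, but with earlier results of these data known. They are the calcineurin catalytic subunit genes Ppp3ca, Ppp3cb and Ppp3cc, the regulatory subunit gene Ppp3r1, the calcineurin regulator genes Rcan1 and Rcan3, and the NFAT transcription factor genes Nfatc1, Nfatc2, Nfatc3 and Nfatc4. All 10 were among the 25239 genes of the table, and all 10 passed the filter on low values (3 or more libraries at a TPM of 1 or more) that left 14104 genes to test. Nfatc2 and Nfatc4 passed it with 8 of 24 libraries each, for Nfatc4 all from 2 of the 3 Type V lines, so differences between the types in these genes are partly set by the filter.

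Calcineurin is a phosphatase switched on by calcium and calmodulin. It is made of a catalytic A subunit (Ppp3ca, Ppp3cb or Ppp3cc) and the calcium-binding B subunit Ppp3r1. Active calcineurin removes phosphates from the NFATc proteins, which then enter the nucleus and switch on genes together with partners such as AP-1, and kinases such as Gsk3b and Dyrk1a send them back out. CsA first binds cyclophilins, chiefly cyclophilin A (Ppia), and this complex covers the active calcineurin, while Rcan proteins bind and restrain the enzyme and Rcan1 is itself a known transcriptional target of NFAT.

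The 24 libraries came from 6 mouse small cell lung cancer (SCLC) cell lines, each grown from an individual tumor and each given 4 treatments for 72 h. All 6 lines, controls included, lack Rb1 and Rbl2, carry Trp53 alleles silenced by a gene trap (Trp53 XTR after Cre) and express FlpO-ER from Rosa26, so that 4-hydroxytamoxifen (4-OHT) removes the trap and restores p53. Type D lines (4711-1, 4711-18 and 4716-11) die after p53 restoration and Type V lines (4711-11, 4716-10 and 4716-14) stay viable. The treatments were vehicle (Control), vehicle with CsA (Control + CsA), 4-OHT (Restored) and 4-OHT with CsA (Restored + CsA), which gave 8 groups of 3 lines with 1 library per line and treatment. A type is thus a class of tumor-derived lines defined by their fate, the labels give no age of the mice (the study's methods give only an upper limit on age at tumor initiation and a range of weeks from there to excision of the tumors), and each line has 1 library per treatment and no repeat culture.

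Trp53 was at 10.5 to 15.3 TPM (transcripts per 1e6 transcripts) in the 12 libraries without restoration and at 181 to 253 TPM in the 12 with it, matching the labelled restoration in every library. The p53 target genes Cdkn1a and Mdm2 were at 37.5 to 145 and 59.02 to 82.2 TPM without restoration and at 1068 to 2540 and 554 to 1584 TPM with it. Of 12 neuroendocrine markers 5 reached 1 TPM in any library of a type, and Chga, a defining marker, was listed at 0 in all 24 libraries. The summed TPM of 8 fibroblast markers was 0.304 to 1.93 in Type D and 75.6 to 572 in Type V libraries, with 1 and 6 of the 8 reaching 1 TPM, Lum at 0 in every Type D library and Thy1 at 0 in every Type V library. The summed TPM of 6 epithelial markers was 6655 to 16618 in Type D and 689 to 2325 in Type V libraries, and all 6 reached 1 TPM in both types. Summed immune markers lay at 6.53 to 56.3 TPM in Type D and 8.01 to 32.3 TPM in Type V, with Cd3e and Cd8a at 0 throughout, and summed endothelial markers did not exceed 1.40 TPM. The summed neuroendocrine markers lay at 13.0 to 89.0 TPM in Type D and 16.7 to 85.9 TPM in Type V. The fibroblast and epithelial sums thus separated the types, while the neuroendocrine, immune and endothelial sums overlapped. The part of these marker levels in the differences between types given here was not tested. In bulk libraries fewer cells of a kind and less RNA per cell cannot be told apart.

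TPM corrects for transcript length, so levels can be compared between genes. The calcium-binding subunit Ppp3r1 was the most abundant of the 10, with a median of 135 TPM over the 24 libraries (106 to 175). Nfatc3 (median 83.8 TPM, 61.7 to 196) and Ppp3ca (median 73.3 TPM, 35.5 to 133) came next, and their ranges overlapped. Ppp3cb had a median of 38.7 TPM (30.0 to 50.4), Rcan3 of 29.2 TPM (10.5 to 47.1) and Rcan1 of 24.8 TPM (16.5 to 75.8), again with overlapping ranges. Nfatc1 lay lower, at a median of 13.9 TPM (8.20 to 26.6), and Ppp3cc lower still, at 3.92 TPM (1.71 to 6.40). Nfatc2 and Nfatc4 had medians of 0.426 and 0.299 TPM and reached 5.50 and 17.8 TPM in single lines. These cells therefore held transcripts of every part of the pathway, with Ppp3r1, Nfatc3 and Ppp3ca at the highest medians. The plot of TPM by treatment shows the spread between lines of a type beside the spread between treatments.

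**Figure D1:**
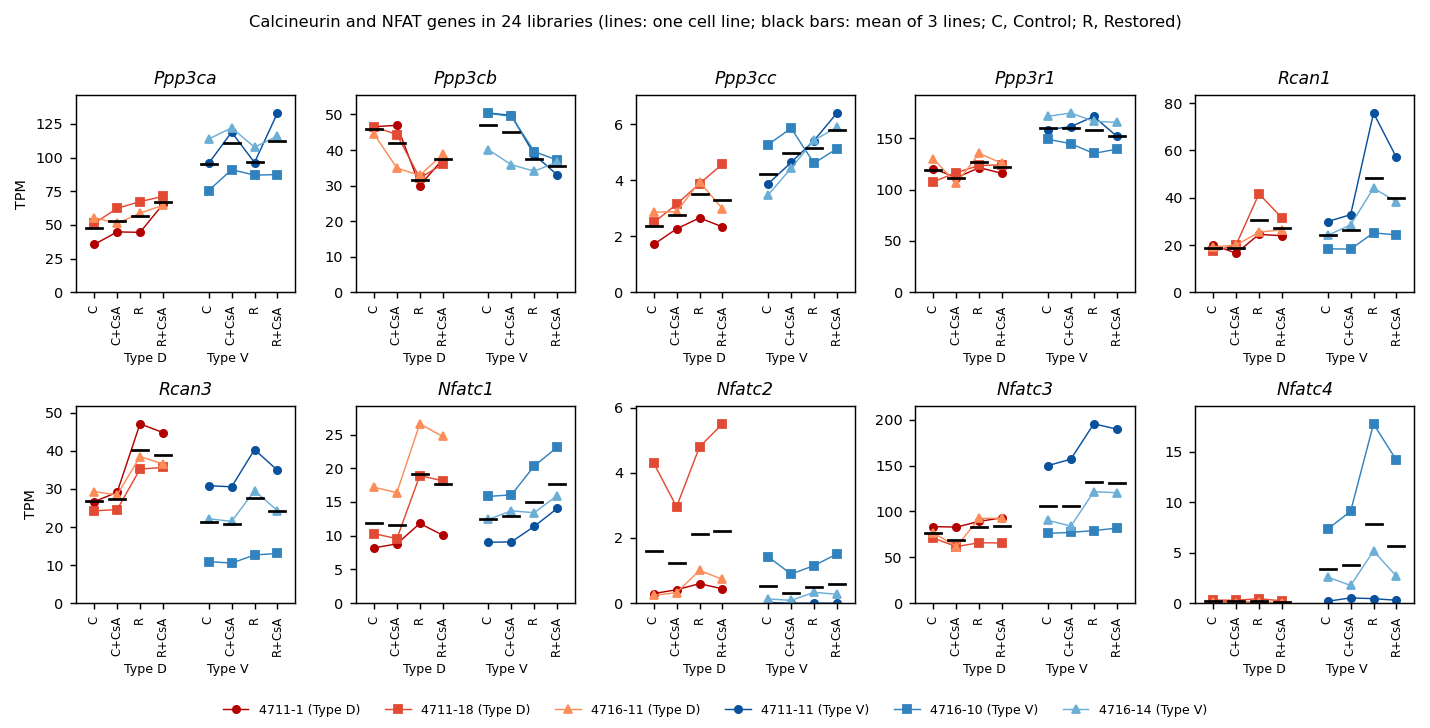
TPM (y axis, linear from 0, a separate scale for each gene) of the 10 genes by treatment (x axis, Control, Control + CsA, Restored, Restored + CsA) for Type D lines (left, reds) and Type V lines (right, blues). Points joined by a line are the 4 libraries of 1 cell line and black bars are means of 3 lines; Ppp3ca lay between 35.5 and 71.2 TPM in Type D and between 75.5 and 133 TPM in Type V libraries.

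The first question was whether the lines that die and the lines that stay viable differ in these genes. The catalytic subunit Ppp3ca was lower in Type D than in Type V lines under all 4 treatments, and the regulatory subunit Ppp3r1 was lower in the absence of restoration. No NFAT gene and neither Rcan gene passed the test in any of the 4 comparisons. Here a gene passed when its limma p adjusted over all 14104 genes was under 0.05. It also met the study's rule when the difference was at least 1 on the log2(TPM + 1) scale. Only these cutoffs are the study's. With the filter and fit used here more genes met them than the study reports, between types in Control and with restoration in each type.

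Ppp3ca encodes the catalytic A alpha subunit. In Control it was at 35.5, 51.2 and 55.4 TPM in the Type D lines 4711-1, 4711-18 and 4716-11 and at 95.7, 75.5 and 114 TPM in the Type V lines 4711-11, 4716-10 and 4716-14. The group means were 47.4 ± 10.5 and 95.01 ± 19.1 TPM (SD, n = 3 each), and the groups did not overlap. The difference, Type D minus Type V, was -0.99 on the log2 scale (SE 0.21, adjusted p = 0.00306), just short of the study's minimum of 1. In Control + CsA the Type D lines stood at 44.8, 62.3 and 51.1 TPM and the Type V lines at 119, 91.0 and 122 TPM, a difference of -1.06 (SE 0.21, adjusted p = 0.00177) that met the study's rule. In Restored the lines stood at 44.5, 67.3 and 58.8 TPM against 96.3, 86.9 and 108 TPM, a difference of -0.77 (adjusted p = 0.0161). In Restored + CsA they stood at 65.3, 71.2 and 64.5 TPM against 133, 87.4 and 116 TPM, a difference of -0.71 (adjusted p = 0.0289). The highest Type D library, 71.2 TPM, thus lay below the lowest Type V library, 75.5 TPM, across all 24. The types overlapped in no treatment. Whether Ppp3ca met the minimum of 1 depended on which line was in the comparison: the difference in Control was -1.15 (adjusted p = 0.00113) without the line 4716-10, and that in Control + CsA was -0.95 (adjusted p = 0.0103) without the line 4711-1. In Restored the adjusted p was 0.092 without 4711-1, 0.0573 without 4716-11 and 0.0795 without 4716-14, and in Restored + CsA it was 0.0592 without 4711-1, 0.127 without 4716-11, 0.151 without 4711-11 and 0.099 without 4716-14. With the 2 compared groups fitted alone the adjusted p of Ppp3ca was 0.0721, 0.0925 and 0.0831 in Control, Restored and Restored + CsA.

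The regulatory subunit Ppp3r1 showed a smaller difference in the same direction. In Control it was at 121, 108 and 130 TPM in the Type D lines and at 158, 149 and 171 TPM in the Type V lines, without overlap, and differed by -0.42 (SE 0.11, adjusted p = 0.0192). In Control + CsA the values were 112, 117 and 106 TPM against 161, 145 and 175 TPM, a difference of -0.52 (SE 0.11, adjusted p = 0.00444). The Control difference did not pass without 4711-1, 4711-18, 4711-11 or 4716-14 (adjusted p of 0.0874, 0.0975, 0.0543 and 0.0839), nor with median-ratio scaling (-0.30, adjusted p = 0.0728), nor with the 2 groups fitted alone (0.113; in Control + CsA 0.0703). With p53 restored the Ppp3r1 differences were -0.31 (adjusted p = 0.0773) and, with CsA, -0.32 (adjusted p = 0.0769), which did not pass, but did without the line 4716-10 (-0.41, adjusted p = 0.0121, and -0.38, adjusted p = 0.0203). In Restored the highest Type D line, 4716-11, and the lowest Type V line, 4716-10, both stood at 135 TPM.

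The other catalytic subunits did not pass. Ppp3cb, the A beta subunit, was nearly equal in Control at 45.9 ± 1.17 TPM in Type D and 46.9 ± 5.95 TPM in Type V (SD, n = 3), a difference of -0.02 with a 95% confidence interval of -0.32 to 0.27. Ppp3cc, the A gamma subunit, stood in Control at 1.71, 2.49 and 2.86 TPM in the Type D lines and at 3.88, 5.28 and 3.48 TPM in the Type V lines. Its groups did not overlap under any of the 4 treatments, but its differences of -0.64, -0.67, -0.46 and -0.69 had adjusted p of 0.0679, 0.0508, 0.176 and 0.0505. The last passed without 4711-18 (0.0259) or 4716-10 (0.041). Under the other treatments Ppp3cb differed by -0.09, -0.23 and 0.07, and in Restored all 3 Type D lines (30.0 to 32.9 TPM) lay below the Type V lines (34.05 to 39.5 TPM) without passing. The make-up of the catalytic pool was looked at after the values were seen and is given without a test. The ratio of Ppp3ca to Ppp3cb transcripts had a median of 1.47 in the 12 Type D libraries (0.763 to 2.09) and of 2.44 in the 12 Type V libraries (1.502 to 4.03). The 3 catalytic transcripts together amounted to 77.2 to 112 TPM in Type D and 130 to 173 TPM in Type V libraries. Ppp3cc contributed at most 4.13% of the catalytic TPM in any library.

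**Figure D2:**
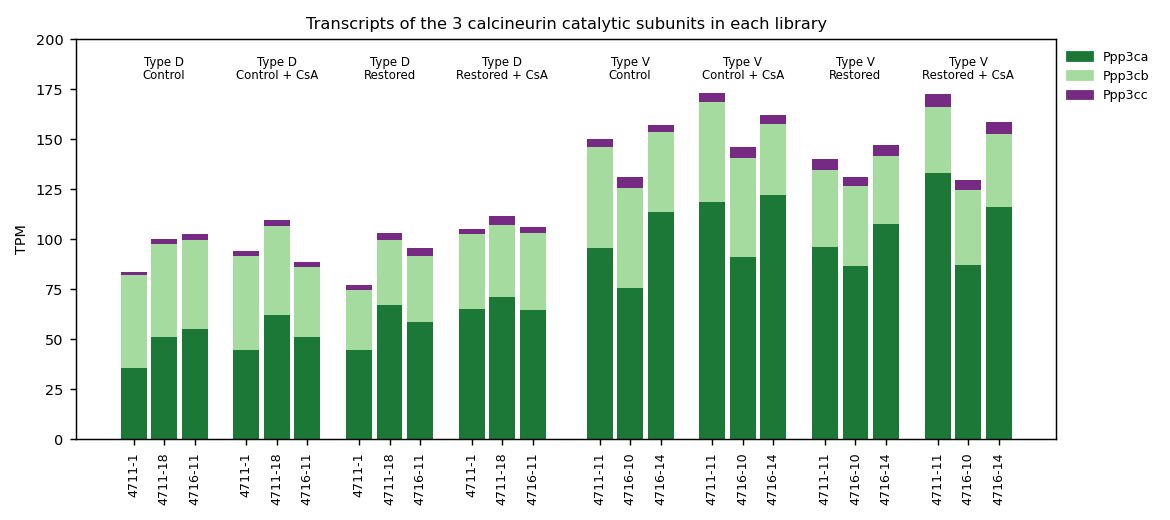
Stacked bars of TPM (y axis, from 0) of Ppp3ca, Ppp3cb and Ppp3cc in each of the 24 libraries, grouped by type and treatment and named by cell line. The total reached 112 TPM in Type D and started at 130 TPM in Type V, and most of the gap was Ppp3ca.

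The Rcan genes encode small proteins that bind calcineurin. In Control, Rcan1 was at 20.2, 17.3 and 19.3 TPM in the Type D lines and at 29.9, 18.4 and 24.1 TPM in the Type V lines, and the groups overlapped. Its differences between types ran from -0.32 to -0.55 over the 4 treatments, and the 95% interval in Control was -1.03 to 0.40. In Restored Rcan1 passed without the line 4716-10 (-0.94, adjusted p = 0.0192). Rcan3 in Control stood at 26.7, 24.3 and 29.3 TPM (Type D) and 30.9, 10.9 and 22.2 TPM (Type V), with the line 4716-10 lowest under every treatment. Its differences ran from 0.42 to 0.77, with adjusted p of 0.251 at the lowest. In Restored + CsA the 3 Type D lines (35.7 to 44.8 TPM) all lay above the 3 Type V lines (13.1 to 34.9 TPM).

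Among the NFAT factors Nfatc3 made up most of the transcripts, 73.2% to 90.7% of the NFATc TPM in Type D and 66.8% to 94.3% in Type V libraries. Nfatc3 in Control stood at 83.5, 70.9 and 76.5 TPM (Type D) and 150, 76.1 and 90.3 TPM (Type V). Its differences were -0.39, -0.56, -0.59 and -0.57 (adjusted p of 0.493, 0.293, 0.265 and 0.304), and the line 4711-11, the highest under every treatment at 150 to 196 TPM, stood apart from the other 5. Nfatc1 in Control stood at 8.20, 10.3 and 17.2 TPM (Type D) and 9.03, 15.8 and 12.4 TPM (Type V), and differed by -0.09 with a 95% interval of -0.86 to 0.68. The lines of the types overlapped in Nfatc1 under every treatment.

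Nfatc2 and Nfatc4 each depended on particular lines. Nfatc2 was at 2.96 to 5.50 TPM in the Type D line 4711-18 and at 0.892 to 1.51 TPM in the Type V line 4716-10, and did not exceed 1.00 TPM in the other 4 lines. Nfatc4 stayed at or below 0.448 TPM in every Type D library and at or below 0.522 TPM in the Type V line 4711-11. In the Type V line 4716-10 it was at 7.34, 9.11, 17.8 and 14.2 TPM in Control, Control + CsA, Restored and Restored + CsA, and in 4716-14 at 2.59, 1.75, 5.17 and 2.68 TPM. The Nfatc4 differences were -1.48, -1.57, -2.22 and -1.93 on the log2 scale and did not pass (adjusted p of 0.297, 0.248, 0.0991 and 0.171). Without 4711-11, the Type V line near the Type D level, all 4 met the study's rule, at -2.21, -2.17, -3.19 and -2.77 (adjusted p of 0.0298, 0.031, 0.0032 and 0.00863). With the cell line as a random block Nfatc4 met it in Restored (adjusted p = 0.0132) and in Restored + CsA (adjusted p = 0.0326). Because Nfatc4 passed the filter only through 4716-10 and 4716-14, where it is high, these differences between types are a description and not a test.

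In counts, 0 of the 10 members met the study's rule in Control, where 8.83% of all tested genes did, and 2 passed the adjusted p alone, where 13.1% did. In Control + CsA 1 member (Ppp3ca) met the rule against 9.88% of genes and 2 passed the adjusted p against 15%. In Restored the counts were 0 against 9.44% and 1 against 14.8%, and in Restored + CsA 0 against 7.82% and 1 against 11.9%. At an unadjusted p under 0.05 there were 3, 3, 3 and 4 members, against 27.3%, 28.7%, 29.2% and 26.4% of all genes. The types did not overlap in 3 members in Control (31.4% of all genes), 4 in Control + CsA (31.8%), 3 in Restored (29.2%) and 5 in Restored + CsA (30%). With so few members these counts lie near the background shares and are not read as a result about the group. The median difference of the 10 was -0.35, -0.48, -0.38 and -0.39, against -0.12, -0.13, -0.07 and -0.05 for all tested genes.

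**Figure D3:**
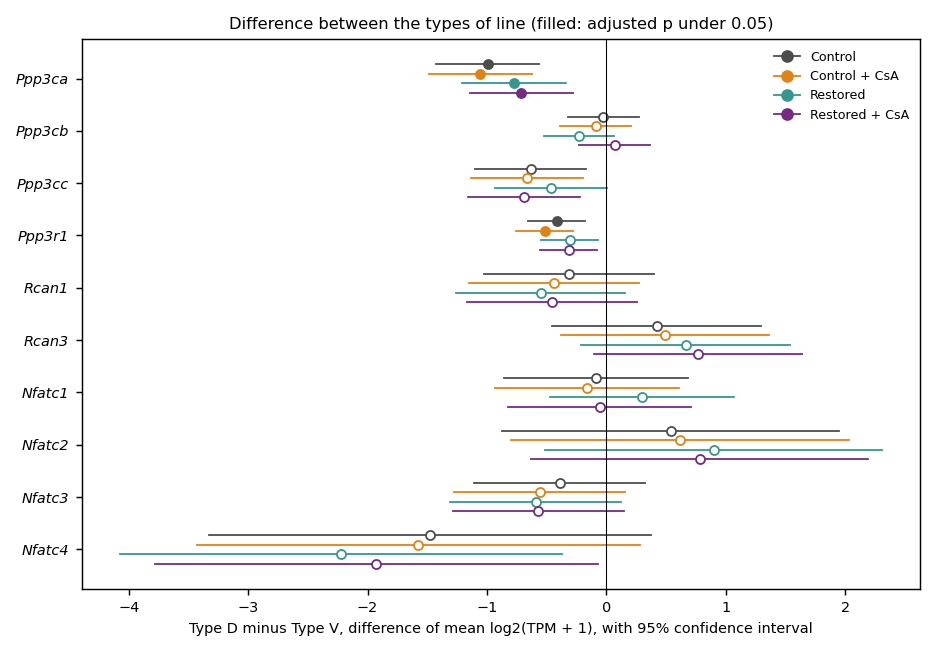
Difference of mean log2(TPM + 1), Type D minus Type V (x axis), for each gene (rows) under the 4 treatments (colors), with 95% confidence intervals from limma; filled circles had an adjusted p under 0.05. Ppp3ca was filled under all 4 treatments, from -0.71 to -1.06, Ppp3r1 in Control and Control + CsA, and the widest intervals belonged to Nfatc4.

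The second question was whether restoring p53 moves these genes. Ppp3cb fell in Type D lines, and it is the only member that passed in any of the 4 restoration comparisons when lines were not paired. Because the 4 libraries of a line come from the same cells, a fit with the cell line as a block compares each line with itself. With that block and without CsA, Ppp3cb fell in both types, Rcan1 and Rcan3 rose in both types, Nfatc1 and Ppp3cc rose in Type D, and Nfatc3 and Nfatc4 rose in Type V, each by less than 1 on the log2 scale.

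Ppp3cb was at 46.5, 46.6 and 44.5 TPM in the Control libraries of 4711-1, 4711-18 and 4716-11 and at 30.0, 32.2 and 32.9 TPM in their Restored libraries. The Restored lines all lay below the Control lines, and the change was -0.52 (SE 0.14, adjusted p = 0.0184; with the line block 0.00108), or 0.697 times. Without the block it did not pass when 4711-1, 4711-18 or 4716-11 was left out (adjusted p of 0.173, 0.134 and 0.0759). In Type V it went from 50.4, 50.3 and 40.0 TPM to 38.7, 39.5 and 34.05 TPM, a change of -0.31 (adjusted p = 0.191; with the line block 0.0298). Restored was below Control in all 6 lines, with changes of -0.62, -0.52, -0.43, -0.37, -0.34 and -0.23. Under CsA the direction was not the same in every line: 4716-11 and 4716-14 had slightly more Ppp3cb with restoration (changes of 0.15 and 0.03) and the other 4 lines less. The change under CsA was -0.16 in Type D, which passed in neither fit (adjusted p = 0.598; with the line block 0.269), and -0.32 in Type V (adjusted p = 0.214; with the line block 0.0314). Ppp3ca in Type D had changes of 0.32, 0.39 and 0.08, opposite in sign to those of Ppp3cb, and the Ppp3ca to Ppp3cb ratio went from a mean of 1.04 ± 0.248 in Control to 1.79 ± 0.306 in Restored (SD, n = 3). In Type V the mean ratio also rose, from 2.08 ± 0.688 in Control to 2.62 ± 0.494 in Restored. In Control + CsA it was 1.27 ± 0.277 in Type D and 2.54 ± 0.794 in Type V, above Control in both types. The ratio was not tested.

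The other subunits did not pass without the block. Ppp3ca differed by 0.26 in Type D (adjusted p = 0.485) and by 0.04 in Type V (adjusted p = 0.964), and under CsA in Type D by 0.35 (adjusted p = 0.349; with the line block 0.0187). Ppp3r1 differed by 0.09 in Type D and by -0.02 in Type V, with 95% intervals of -0.15 to 0.33 and -0.26 to 0.22. Ppp3cc was higher in 5 of 6 lines after restoration, by 0.42 in Type D (adjusted p = 0.255; with the line block 0.0325) and by 0.25 in Type V (adjusted p = 0.594; with the line block 0.202).

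Rcan1 was higher after restoration in all 6 lines, with and without CsA. In Type D it went from 20.2, 17.3 and 19.3 TPM to 24.5, 41.7 and 25.4 TPM, a change of 0.63 (SE 0.34, adjusted p = 0.270; with the line block 0.00607). In Type V it went from 29.9, 18.4 and 24.1 TPM to 75.8, 25.1 and 44.1 TPM, a change of 0.86 (SE 0.34, adjusted p = 0.125; with the line block 0.000683). The size varied by line, from 0.27 in 4711-1 to 1.22 in 4711-18 and 1.31 in 4711-11, and without the Type V line 4716-10 the Type V change was 1.08 (adjusted p = 0.0326). Under CsA the Rcan1 changes were 0.51 in Type D and 0.53 in Type V (with the line block adjusted p of 0.0225 and 0.0205).

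Rcan3 was also higher in all 6 lines in both settings. In Type D it went from 26.7, 24.3 and 29.3 TPM to 47.1, 35.2 and 38.5 TPM, without overlap, a change of 0.57 (adjusted p = 0.447; with the line block 7.66e-05). In Type V it went from 30.9, 10.9 and 22.2 TPM to 40.4, 12.7 and 29.6 TPM, a change of 0.32 (adjusted p = 0.753; with the line block 0.00701). The block compares lines with themselves, and the line 4716-10 had Rcan3 well below the other 5 lines before and after restoration. Under CsA the Rcan3 changes were 0.49 in Type D (with the line block adjusted p = 0.000325) and 0.21 in Type V (0.0617).

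Rcan1 is transcribed from alternative starts, and the start deeper in the gene is the one known to respond to calcineurin and NFAT, so the 250 bases before both starts are shown with those before the Ppp3cb start. The sequences are from RefSeq on GRCm38.p6, written 5′ to 3′ along the gene, which is on the minus strand for all 3 windows. Capitals mark the NFAT core GGAAA, which reads TTTCC on the other strand, and the AP-1 motif TGANTCA, which do not overlap here. They were searched on both strands.
Rcan1 upstream start, chr16:92466170-92466419: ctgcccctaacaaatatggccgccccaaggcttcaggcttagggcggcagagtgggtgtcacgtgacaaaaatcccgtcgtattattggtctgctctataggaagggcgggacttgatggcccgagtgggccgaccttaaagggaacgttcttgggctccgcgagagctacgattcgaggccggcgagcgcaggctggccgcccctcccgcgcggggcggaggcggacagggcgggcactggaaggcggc
Rcan1 internal start, chr16:92400079-92400328: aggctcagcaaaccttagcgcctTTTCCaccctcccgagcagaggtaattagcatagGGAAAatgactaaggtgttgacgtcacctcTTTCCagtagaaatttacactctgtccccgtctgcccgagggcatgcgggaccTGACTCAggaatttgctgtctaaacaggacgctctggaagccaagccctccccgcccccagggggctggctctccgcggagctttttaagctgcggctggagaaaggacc
Ppp3cb, chr14:20546574-20546823: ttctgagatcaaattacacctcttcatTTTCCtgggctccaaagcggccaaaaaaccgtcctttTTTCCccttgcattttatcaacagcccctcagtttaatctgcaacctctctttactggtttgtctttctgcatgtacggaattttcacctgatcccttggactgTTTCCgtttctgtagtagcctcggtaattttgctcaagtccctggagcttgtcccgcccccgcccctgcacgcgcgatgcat

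The internal Rcan1 window held 3 NFAT cores and 1 AP-1 motif, and the upstream window held neither. Both lie within the span of longer Rcan1 transcripts. The Ppp3cb window held 3 NFAT cores and 1 p53 half-site, a motif that 7.13% of all 32851 mouse windows of this length contain. The NFAT core was found in 55.6% of those windows and the AP-1 motif in 6.75%. The TPM table gives 1 value per gene, so transcripts from the internal and the upstream Rcan1 start could not be separated here. Of the other members with windows, 7 members and 10 windows in all, Rcan3 had 1 NFAT core, Ppp3r1 none and Nfatc4 3. In GENCODE M21 on the same build the Rcan1 gene (ENSMUSG00000022951.16) spans chr16:92391953-92470867 and Ppp3cb (ENSMUSG00000021816.11) chr14:20499364-20546573, both on the minus strand, and Ppp3ca (ENSMUSG00000028161.17) spans chr3:136670124-136937727 on the plus strand.

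No NFAT gene passed without the line block. Nfatc1 was higher in all 6 lines with and without CsA. In Type D it went from 8.20, 10.3 and 17.2 TPM to 11.8, 18.9 and 26.6 TPM, a change of 0.63 (adjusted p = 0.309; with the line block 0.0004). In Type V the change was 0.25 (with the line block adjusted p = 0.0975) and under CsA 0.43 (0.00889), against 0.53 in Type D under CsA (0.00177). Nfatc3 differed by 0.09 in Type D and 0.29 in Type V (with the line block adjusted p of 0.543 and 0.0413), and under CsA it rose with the line block by 0.28 in Type D (0.0483) and by 0.29 in Type V (0.0432). Nfatc4 was higher after restoration in all 3 Type V lines, by 0.28, 1.17 and 0.78, and stayed near 0 in Type D. The mean Nfatc4 change in Type V was 0.74 (adjusted p = 0.725; with the line block 0.00718), and under CsA it was 0.26 (with the line block 0.339), with 4711-11 then lower. Nfatc2 differed by 0.37 in Type D and 0.01 in Type V and passed in neither fit.

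In counts, 0 of 10 members met the study's rule in any of the 4 restoration comparisons, where 6.93% of all tested genes did in Type D, 5.29% in Type V, and under CsA 5.41% and 4.61%. At the adjusted p alone 1 member passed in Type D (Ppp3cb, against 12.9% of genes) and 0 in the other 3 comparisons (9.95%, 8.89% and 7.71%). At an unadjusted p under 0.05 there were 1, 2, 0 and 1 members, against 25.3%, 22.1%, 22% and 19.5% of all genes. With the line block 5 members passed in Type D, 5 in Type V, 5 under CsA in Type D and 4 under CsA in Type V, but so did 45.3%, 40.6%, 41.1% and 37.1% of all tested genes. With the block 0 members met the study's rule in any of the 4, which 11.2%, 8.66%, 9.69% and 7.97% of all tested genes did. The members' shares are thus near the background and are not read as a result about the group. The median change of the 10 was 0.32, 0.25, 0.31 and 0.21, against 0.07, 0.05, 0.09 and 0.04 for all tested genes.

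The changes with restoration were not shown to differ between the types. The difference of the changes, Type D minus Type V, passed for 0 of 10 members (0.0284% of all genes passed), with no member at an unadjusted p under 0.05. With the line block 0 of 10 passed against 5.57% of genes (2.44% by the study's rule), and 2 members had an unadjusted p under 0.05 (22.4% of all genes), Nfatc1 with a difference of 0.38 (adjusted p = 0.181) and Nfatc4 with -0.75 (adjusted p = 0.127). For Ppp3cb the difference of the changes was -0.21, with a 95% interval of -0.62 to 0.21. Restored was set against the same Control libraries as CsA alone, so these comparisons are not independent of each other.

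**Figure D4:**
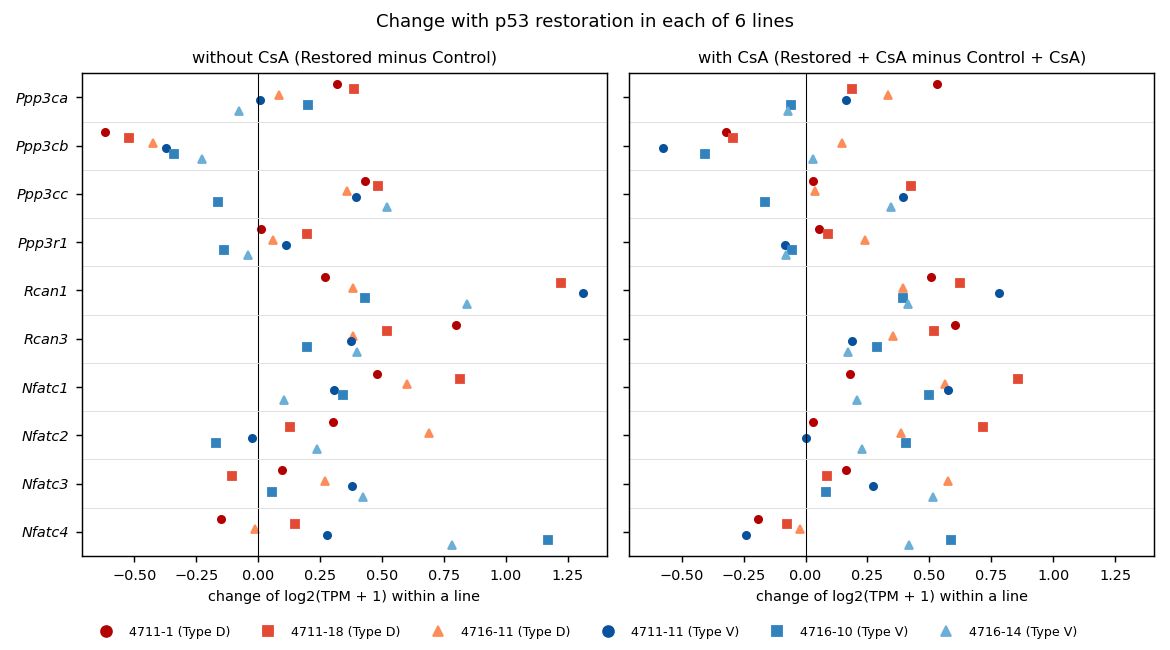
Change of log2(TPM + 1) with p53 restoration within each line (x axis) for each gene (rows), without CsA (left) and with CsA (right). Each point is 1 line (reds Type D, blues Type V); without CsA all 6 points were below 0 for Ppp3cb and above 0 for Rcan1, Rcan3 and Nfatc1.

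The third question was whether CsA, which blocks the activity of the pathway, alters the transcripts of its members. CsA also inhibits the cyclophilins themselves. In the study an inhibitor of cyclophilins that spares calcineurin blocked the death of Type D cells, and tacrolimus, which blocks calcineurin alone, did not. The study also reports weaker p53 target expression with CsA in restored Type D lines. Calcineurin activity was not measured in these libraries, so changes by these routes cannot be told apart. No member passed with CsA in either type, with or without restoration. Over the 6 lines together 0 of 10 passed in each setting, as did 0% of all 14104 genes by limma. With the line block 0 of 10 passed against 0.269% of genes without and 0.0142% with restoration. No member had an unadjusted p under 0.05 in these comparisons without the block, and with the line block Ppp3ca alone had one over the 6 lines (10.2% and 11.1% of all genes; adjusted p of 0.402 without and 0.280 with restoration). Within the types the members passing were again 0 of 10, with 0.0142% of genes passing in Type D with restoration and 0% in the other 3 comparisons. With the line block 0.411% of genes passed there (0.128% by the study's rule), and 2 members in Type D with restoration were below the unadjusted threshold (Ppp3ca and Ppp3cb, adjusted p of 0.360 and 0.394; 12.6% of all genes).

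Ppp3ca was the only member with an unadjusted p under 0.05 over the 6 lines, and that with the line block alone. Without restoration it was higher with CsA in 5 of 6 lines, and the change was 0.19 with a 95% interval of -0.11 to 0.50 (0.03 to 0.36 with the line block). With restoration it was higher in 6 of 6 lines, by 0.22, with an interval of -0.08 to 0.53 (0.06 to 0.39 with the line block). The largest single-line changes were 0.54 in 4711-1 and 0.46 in 4711-11, both with restoration. Ppp3ca did not pass the adjusted test in either fit.

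Rcan1, as a known NFAT target, is the member where a CsA effect could be looked for most directly. Without restoration its change was 0.06, with an interval of -0.45 to 0.56 (-0.19 to 0.31 with the line block). With restoration it was -0.17, with an interval of -0.67 to 0.33 (-0.42 to 0.08 with the line block). In Restored + CsA the Rcan1 values were 23.9, 31.5 and 26.5 TPM in Type D and 57.1, 24.3 and 38.3 TPM in Type V, against 24.5, 41.7 and 25.4 TPM and 75.8, 25.1 and 44.1 TPM in Restored. They were lower in 5 of 6 lines, with changes of -0.39 in 4711-18 and -0.40 in 4711-11, which had the highest Rcan1 of their types in Restored, and of -0.20 in 4716-14.

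The remaining members had changes within 0.20 of 0 over the 6 lines in either setting, except Nfatc4. Without restoration the change was -0.10 for Ppp3cb, -0.05 for Ppp3r1, -0.00074 for Rcan3, 0.01 for Nfatc1, -0.11 for Nfatc2, -0.09 for Nfatc3 and 0.03 for Nfatc4. Ppp3cc was higher in 6 of 6 lines without passing (0.19, 95% interval -0.14 to 0.52, with the line block -0.04 to 0.42). With restoration the change was 0.08 for Ppp3cb, 0.03 for Ppp3cc, -0.05 for Ppp3r1, -0.09 for Rcan3, 0.05 for Nfatc1, -0.0071 for Nfatc2, 0.0078 for Nfatc3 and -0.26 for Nfatc4. The Nfatc4 interval with the line block, -0.56 to 0.04, was the widest of these with restoration. The test of CsA with against without restoration passed for 0 of 10 members and 0% of genes in both fits, with no member at an unadjusted p under 0.05.

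The genes around the pathway were read from 6 lists. In the list of genes known to respond to NFAT, 9 of 19 were expressed enough to test, and Csf2 was the only one of them for which Type D exceeded Type V by the study's rule, under all 4 treatments (3.39, 3.24, 7.14 and 5.27; adjusted p of 0.0109, 0.0138, 1.17e-05 and 0.000356). With restoration Csf2, Ptgs2 and Nr4a1 rose in Type D by the study's rule (6.93% of all genes met it in either direction), and none of the 9 met it in Type V (5.29%). Csf2, which encodes the growth factor GM-CSF, went from 17.3, 10.0 and 64.6 TPM to 398, 439 and 229 TPM in Type D (change 3.86, SE 0.84, adjusted p = 0.00435). Ptgs2, the inducible cyclooxygenase, changed by 3.10 (adjusted p = 0.0056) and the nuclear receptor Nr4a1 by 1.74 (adjusted p = 0.00117). The natriuretic peptide gene Nppb reached 1 TPM in 8 restored libraries and 1 unrestored library, so it passed the filter through the restored libraries, and its Type D change of 1.60, which also met the rule, is given as a description. In Type V the changes of these 4 genes were 0.11, 1.20, 0.51 and 0.87 and did not pass, except Nr4a1 with the line block (adjusted p = 0.0199). The difference between types passed for none of the 9 without the block, and with the line block it met the rule for Csf2 (3.75, adjusted p = 0.0101), Nr4a1 (1.23, adjusted p = 0.00812) and Egr3 (1.44, adjusted p = 0.045). Egr2 fell in Type V with the line block by 1.02 (adjusted p = 0.026).

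With CsA present in both groups, restoration still raised 2 of the 9 in Type D by the study's rule (5.41% of all genes in either direction). With the line block it raised 4 (9.69%), as many as without CsA, and 3 of the 9 were lower. In Type V under CsA 0 met the rule in either fit. Ptgs2 in Type D went from 139, 31.9 and 46.1 TPM in Control + CsA to 473, 345 and 299 TPM in Restored + CsA. Set against Restored alone, the 9 NFAT-responsive genes were all lower in Type D in Restored + CsA on average, and none passed. Csf2 was at 48.1, 201 and 112 TPM in Restored + CsA, below its Restored value in each of the 3 Type D lines, and the change was -1.73 with a 95% interval of -3.49 to 0.04 (adjusted p = 1; with the line block 0.166). Egr2 went from 4.77, 2.46 and 3.44 TPM to 0.623, 0.397 and 0.976 TPM, a change of -1.43 (adjusted p = 1; with the line block 0.0879), and Egr3 from 2.01, 1.58 and 0.540 TPM to 0.130, 0.428 and 0.433 TPM, a change of -0.79 (with the line block 0.236). The Type D values of Egr2 in Restored and Restored + CsA did not overlap. Over the 6 lines the median change of the list with restoration was -0.36, against -0.01 for all tested genes, with 9 of 9 lower and 0 of 9 passing. Without restoration 7 of 9 were lower, with a median of -0.21 against -0.02 for all genes and 0 of 9 passing. The list was put together with earlier results of these data known, so its direction is described and not tested.

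**Figure D5:**
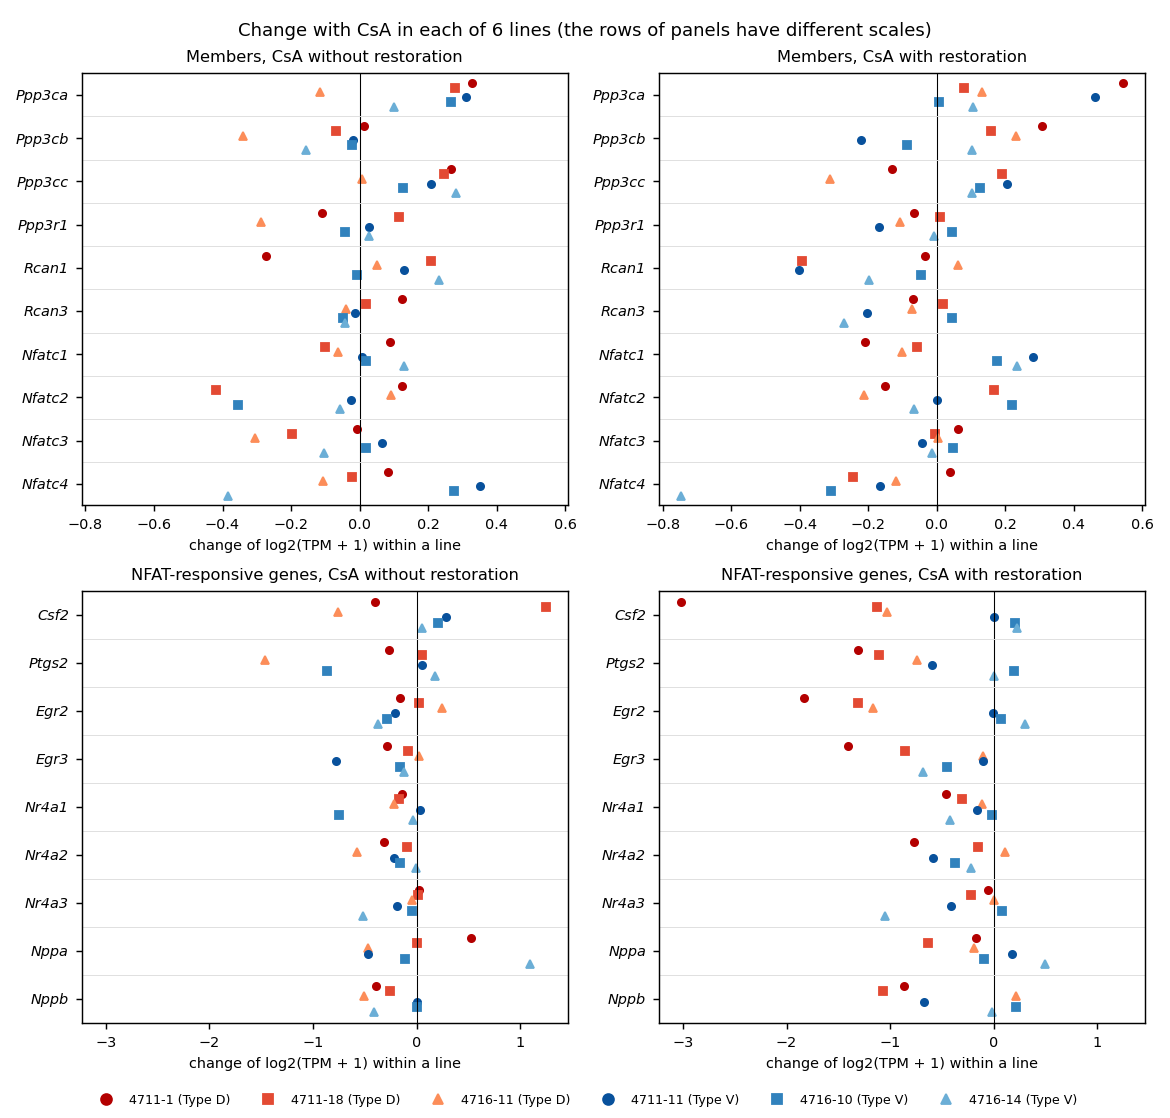
Change of log2(TPM + 1) with CsA within each line (x axis, the upper and lower panels have different scales) for the 10 members (upper) and the 9 tested NFAT-responsive genes (lower), without restoration (left) and with restoration (right). Member changes stayed within 0.75 of 0, while Csf2 reached -3.02 in 4711-1, and Egr2 was below -1 in all 3 Type D lines with restoration.

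Upstream of calcineurin the list of calcium entry, release and calmodulin genes had 13 of 13 tested. Orai2, a pore subunit of store-operated calcium channels, rose with restoration in both types, from 44.9, 36.0 and 26.3 TPM to 148, 168 and 99.1 TPM in Type D (1.92, adjusted p = 0.0265) and from 4.30, 33.3 and 17.5 TPM to 58.0, 114 and 108 TPM in Type V (2.60, adjusted p = 0.00444), and again under CsA (1.79, adjusted p = 0.0493, and 2.55, adjusted p = 0.00559). It was the only gene of this list that met the study's rule with restoration in each of the 4 comparisons, and Itpr2, an inositol trisphosphate receptor, met it with the line block alone in Type D (1.08, adjusted p = 9.95e-05) and in Type D under CsA (1.16, adjusted p = 6.27e-05). Between types, the channel gene Orai1 was higher in Type D in Control + CsA (1.08, adjusted p = 0.00854) and in Restored + CsA (1.19, adjusted p = 0.0052). The calcium sensor Stim2 was lower in Type D in Restored + CsA (-1.26, adjusted p = 0.031).

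Of the proteins that bind calcineurin 8 of 10 were tested and none met the study's rule in any comparison. Fkbp1a and Ppia, the receptors through which tacrolimus and CsA reach calcineurin, were far above the members, with Ppia at 474 to 1149 TPM and Fkbp1a at 230 to 673 TPM. In Type D Fkbp1a fell with restoration from 641, 673 and 639 TPM to 409, 348 and 392 TPM (-0.77, SE 0.12, adjusted p = 0.000185) and Ppia from 864, 840 and 950.5 TPM to 624, 474 and 674 TPM (-0.60, SE 0.19, adjusted p = 0.046). In Type V Fkbp1a fell by 0.52 (adjusted p = 0.00703) and Ppia differed by -0.48 (adjusted p = 0.130; with the line block 0.000821). With CsA over the 6 lines without restoration the changes were -0.15 for Fkbp1a and -0.07 for Ppia, which did not pass (adjusted p of 1 each; with the line block 0.433 and 0.759). Ppp3r2, the testis form of the regulatory subunit, and Chp2 were listed at 0 in all 24 libraries.

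Of the kinases and export factors that oppose NFAT 12 of 12 were tested, and 1 met the study's rule, Csnk1e in Restored, higher in Type D (1.00, adjusted p = 0.00079). Of the NFAT partners and Nfat5 12 of 13 were tested. Fosl2, an AP-1 subunit, was lower in Type D in Control (-1.92, adjusted p = 0.00316) and in Control + CsA (-2.15, adjusted p = 0.00117), and Fosb, another AP-1 subunit, was higher in Restored (2.72, adjusted p = 0.0268). With restoration none met the rule without the block, and with the line block in Type D Fosl1 rose by 1.56 (adjusted p = 0.00191), Fosl2 rose by 1.04 (adjusted p = 0.000395) and Maf, a bZIP factor, fell by 1.32 (adjusted p = 2.74e-05). The Maf change differed between types with the line block (-1.22, adjusted p = 0.0127).

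The list of other calcineurin substrates, 8 of 9 tested, was lower in Type D for all 8 genes under each of the 4 treatments, with medians of -0.55, -0.60, -0.37 and -0.37, against -0.12, -0.13, -0.07 and -0.05 for all tested genes. The adjusted p passed for 4, 5, 2 and 2 of the 8, against 13.1%, 15%, 14.8% and 11.9% of all genes. Tfe3, a transcription factor of lysosome and autophagy genes, met the study's rule in Control (-1.14, SE 0.30, adjusted p = 0.0155), with 32.3, 48.4 and 34.6 TPM in Type D against 76.2, 69.7 and 113 TPM in Type V. The CREB coactivator Crtc1 met it in Control + CsA (-1.05, SE 0.22, adjusted p = 0.00321), with 17.5, 14.1 and 16.9 TPM against 42.3, 27.1 and 35.8 TPM. Its differences under the other treatments were -0.94, -0.96 and -0.85, with adjusted p of 0.00764, 0.00656 and 0.0168. None of the 8 passed with restoration without the block or with CsA in either fit, and with the line block 5 passed with restoration in Type D (45.3% of all genes) and 0 in Type V.

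Across the 24 libraries the genes whose log2(TPM + 1) followed each member most closely, by Pearson's r over these libraries and as a description only, since the 4 libraries of a line share their cells, were Rhoq (0.97), Tmem231 (0.97) and Tbc1d9 (0.95) for Ppp3ca and Nucks1 (0.89), Nat10 (0.88) and Nudcd1 (0.88) for Ppp3cb. For Ppp3r1 they were Podnl1 (0.96), Dysf (0.94) and Sirpa (0.94), and for Ppp3cc Chpf (0.93), Adamtsl4 (0.92) and Masp1 (0.91). For Rcan1 they were Ndufb6 (0.94), Fndc3b (0.93) and Tmem30a (0.93), and for Rcan3 Chrnb1 (0.94), Mtf1 (0.93) and Htatip2 (0.93). For Nfatc1 they were Ighmbp2 (0.88), Dis3l2 (0.85) and Zfp407 (0.83), and for Nfatc3 Ddhd2 (0.97), Zfp941 (0.96) and Tnks (0.95). For Nfatc2 they were Syt14 (0.94), Tbkbp1 (0.94) and Cdhr5 (0.92), and for Nfatc4 Kctd15 (0.96), Tspan11 (0.96) and Ehd3 (0.96). Among the members themselves Ppp3ca followed Ppp3r1 (0.86) and Ppp3cc (0.83), and Rcan3 ran opposite to Nfatc4 (-0.86), with the line 4716-10 lowest in Rcan3 and highest in Nfatc4.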

How the data were processed

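Poly(A) RNA libraries of 6 cell lines under 4 treatments were made with a stranded mRNA kit and read single-end. The deposited table holds TPM per gene made by the authors, for 25239 genes and 24 libraries. Kallisto and HISAT2 are both named in the study's methods and HISAT2 in the submitters' processing notes, as are the builds mm10 and GRCm39, and which of them gave the table is not stated. TPM keeps no depth, so the depth per library is unknown and no counting interval is given. Between 11853 and 12651 genes had at least 1 TPM per library, no columns were identical and 0 columns were left unmapped.

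Values were taken as log2(TPM + 1), a scale that understates changes of low genes. The 14104 genes at 1 TPM or more in at least 3 libraries were fitted with limma 3.58.1 in R 4.3.3 (trended empirical Bayes), with 8 group means and no block, and p values were adjusted by Benjamini-Hochberg within each of 16 comparisons. The study's rule was an adjusted p under 0.05 with a change of at least 1, and the adjusted p alone was also used. Libraries of 1 line share cells, per the labels. Deviations from the group mean correlated at 0.599 to 0.929 within a line (36 pairs) and at -0.675 to 0.0438 between lines of a type under different treatments (72 pairs), so fits with the cell line as a block are given beside the others. The block cannot be fitted between types, where a random effect was used (consensus correlation 0.736). The fit without a block and the fit with the fixed line block were run on simulated data for restoration in Type D. The other comparisons and the random effect were not. Without the block, a change is set against the spread between lines, and with the line block against how much the changes differ between lines. The fit without the block counts the libraries of a line as independent when it estimates the spread. Its p values between types can therefore be too small. For restoration and CsA it keeps differences between lines that pairing removes, so its p values there can be too large.

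Alternatives were another pseudocount, other filters, quantile and median-ratio scaling, the compared groups alone, leaving out each line, and 3 further type differences chosen after seeing the data. The members and all lists were chosen with earlier results of these data known. Genes named outside the 10 members were those of the lists that met the study's rule in a comparison (at most 6 per list and comparison), the drug receptors Fkbp1a and Ppia, the 3 genes most correlated with each member, and Trp53, Cdkn1a and Mdm2 as label checks. The CsA values of Csf2, Egr2 and Egr3, and Ppp3r2 and Chp2, were chosen after their values were seen. Some list and marker genes are not reported here. Promoter windows are the 250 bases before RefSeq starts on GRCm38.p6, and 7 of the 10 members had one to report.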

Additional observations from a re-analysis of the deposited data

Results flagged for a closer look

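Lines of the types moved in opposite directions in 2 of the 40 pairs of member and contrast examined. The share over all tested genes was not computed, so this count is not read as a result about the members. For Ppp3r1 with restoration under CsA, all 3 Type D lines were higher (mean 0.127 on the log2 scale) and all 3 Type V lines lower (mean -0.0718). The difference of 0.199 did not pass a limma test added after the data were seen (adjusted p = 1; with the line block 0.272). For Nfatc1 with CsA after restoration, all 3 Type D lines were lower (mean -0.123) and all 3 Type V lines higher (mean 0.230). The difference of -0.353 did not pass either (adjusted p = 1; with the line block 0.878). The changes with CsA of the 10 members over the 6 lines, with and without restoration, gave 20 sets in which a single outlying line was looked for with Dixon's test, and none was found, where chance would give about 1 in 20. The levels themselves were not tested in this way.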

How the results depend on the processing

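Numbers of members that met the study's rule are given here as they changed with the processing. For Type D minus Type V in Control the number was 0, and it was 1 with a pseudocount of 0.1 (Ppp3ca), 2 with no minimum change, and 0 to 1 with single lines left out (Ppp3ca without 4711-18, 4716-11 or 4716-10, Nfatc4 without 4711-11). In Control + CsA it was 1, and 0 with quantile normalization or median-ratio scaling, 2 with no minimum change, and 0 to 1 with lines left out (0 without 4711-1 or 4716-14, and 1 without 4711-11, where Nfatc4 met the rule at -2.17 and Ppp3ca, at -0.9988, did not). In Restored and in Restored + CsA it was 0, and 1 with the replicate block as a random effect (Nfatc4), 1 with no minimum change, and 0 to 1 with lines left out (Nfatc4 without 4711-11). For restoration it was 0, and 1 in Type D with no minimum change (Ppp3cb) and 0 to 1 in Type V with lines left out (Rcan1 without 4716-10). The cause of these moves was not tested. With the cell line as a fixed replicate block the number stayed at 0 in the restoration and CsA comparisons, so the pairing changed no other call by this rule. Of 2344 alternative values of single members 2322 kept their call, 5 no longer met the study's rule and 17 were newly called. Some of the 17 were below the minimum of 1 and were called only where that minimum was dropped. These were Ppp3ca in Control, Restored and Restored + CsA, Ppp3r1 in Control and Control + CsA, and Ppp3cb with restoration in Type D. The sign changed in 80, in 0 of them with the rule met before or after, and 1 of the 80 concerned a change of at least 0.25, Nfatc2 in Control, at -0.15 without 4711-18. Depth is unknown, and Nfatc2 and Nfatc4 near 0 TPM are limited most by it. Without the block, Nfatc4 differences as large as -2.22 did not pass. Nfatc4 passed the filter only through 4716-10 and 4716-14, so its calls between types are descriptions.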
